A study of Rattus norvegicus with 12 samples.

Results

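The proteasome is the large protease that breaks down proteins tagged with ubiquitin, and its subunits are encoded by the Psma, Psmb, Psmc and Psmd genes. The genes described here are those with a symbol made of Psma, Psmb, Psmc or Psmd and a number, without the immunoproteasome genes Psmb8, Psmb9 and Psmb10, and with a probe named through its RefSeq accession. There were 33 such genes among 16667 genes with a named probe, and all 33 passed the filter on dim probes and were among the 21874 genes tested, of which 11400 had a symbol. Psmb3, Psmb11 and Psmd11 share the naming pattern and were not analysed here. Of the 33, Psmd5, Psmd9 and Psmd10 carry a subunit symbol but are chaperones that help to assemble the regulatory particle, so 30 members encode proteasome subunits proper.

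Single-colour arrays measured liver RNA from 12 male Wistar rats, all adult, with 1 rat on each. Casein made up 14% of the control diet of 6 rats and 5% of the low protein diet, equal in energy, of the other 6, and both were fed for 4 weeks. Wistar is an outbred strain, no genotype or further treatment is given, and the adult age is not given in weeks. Each array had 58717 spots that were not controls, 61.2% to 69.9% of them well above background, and the arrays lay on 2 slides, with 4 rats of each diet on slide 1 and 2 of each on slide 2. Row on the slide and diet cannot be told apart on slide 1 (row 1 held control, row 2 low protein rats), while slide 2 used row 1 for both diets. All 6 hepatocyte markers checked, among them Alb and Ttr, were well above background on all 12 arrays. Of these, Tat (-2.02 ± 0.32, SE), Apoa1 (-0.84 ± 0.14) and Cps1 (-0.68 ± 0.14) were lower in low protein rats. Their limma adjusted p were 0.00361, 0.00387 and 0.0135. The others, Alb (-0.20), Ttr (-0.07) and Cyp2e1 (0.08), did not pass the limma test, which 6.53% of all genes passed. The summed signal of the 6, in units of the array's 75th percentile, was 366 to 415 in control and 321 to 394 in low protein rats, and its part in the values below was not tested. Of 29 measured markers of other liver and blood cells, 0 passed the test in limma. At an unadjusted p under 0.05 there were 7, all lower in low protein rats, where 21.6% of all genes had such a p; 20 of the 29 differences were negative, with a median of -0.20. In whole liver, fewer cells of a type and less RNA per cell cannot be told apart.

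The 26S proteasome consists of a barrel, the 20S core, and a cap, the 19S regulatory particle. The core stacks outer rings of alpha subunits, which gate the entrance, on inner rings of beta subunits, of which Psmb5, Psmb6 and Psmb7 carry the cutting sites. In the cap, a ring of Psmc ATPases unfolds the substrate and threads it into the core, and the Psmd subunits bind ubiquitin chains, remove them and hold the particle together. Because subunits are built into the particle in fixed proportions, their genes are known to be transcribed together, with NFE2L1 (NRF1) as the activator when proteasome capacity is short. The liver relies on this pathway and on autophagy to turn over its proteins.

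The 33 proteasome genes differed little between the diets. In the limma fit over all genes (Benjamini-Hochberg adjusted p under 0.05), 0 of 33 were higher and 0 were lower in low protein livers, where 6.53% of all genes passed, 3.48% as higher and 3.05% as lower. At an unadjusted p under 0.05 there were 3 members (9.09%), Psma6 and Psmb2 with higher and Psmd10 with lower values, against 21.6% of all genes. The median log2 difference, low protein minus control, was -0.04 over the members and -0.03 over all genes tested; with quantile normalization the members' median was -0.09, and with the 75th percentile taken over detected probes -0.07. Of the 33 differences, 11 were positive and 22 negative, where 9823 of all 21874 genes had positive and 12051 had negative differences. With quantile normalization 5 of the members' positive differences (Psmc1, Psmc2, Psmc3, Psmd2 and Psmd6) turned negative. Without scaling, which moved the median of all genes by 0.13, 19 members changed sign. The median size of a difference, whatever its sign, was 0.07 among members and 0.14 among all genes.

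A difference that misses the threshold does not show equality, so the intervals were read as well. The 95% interval of the difference lay within 1.5-fold either way for 32 of 33 members (97.0%), against 69.9% of all genes; this limit was chosen after the values were seen. For those 32 genes the interval bounds ran from a fold of 0.762, the lower bound of Psmb7, to 1.29, the upper bound of Psma6. The exception was Psma8, the alpha subunit known from testis, at -0.13 with an interval of -0.68 to 0.41. Standard errors of members were small, with a median of 0.07 against 0.13 over all genes, and the SD between rats of a diet had a median of 0.11 for members and 0.22 for all genes. Among the 62 genes of the related lists described further on, 56 intervals (90.3%) lay within 1.5-fold. Their median standard error was 0.09 and their median SD 0.15. These shares were not compared among genes of like signal.

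**Figure D1:**
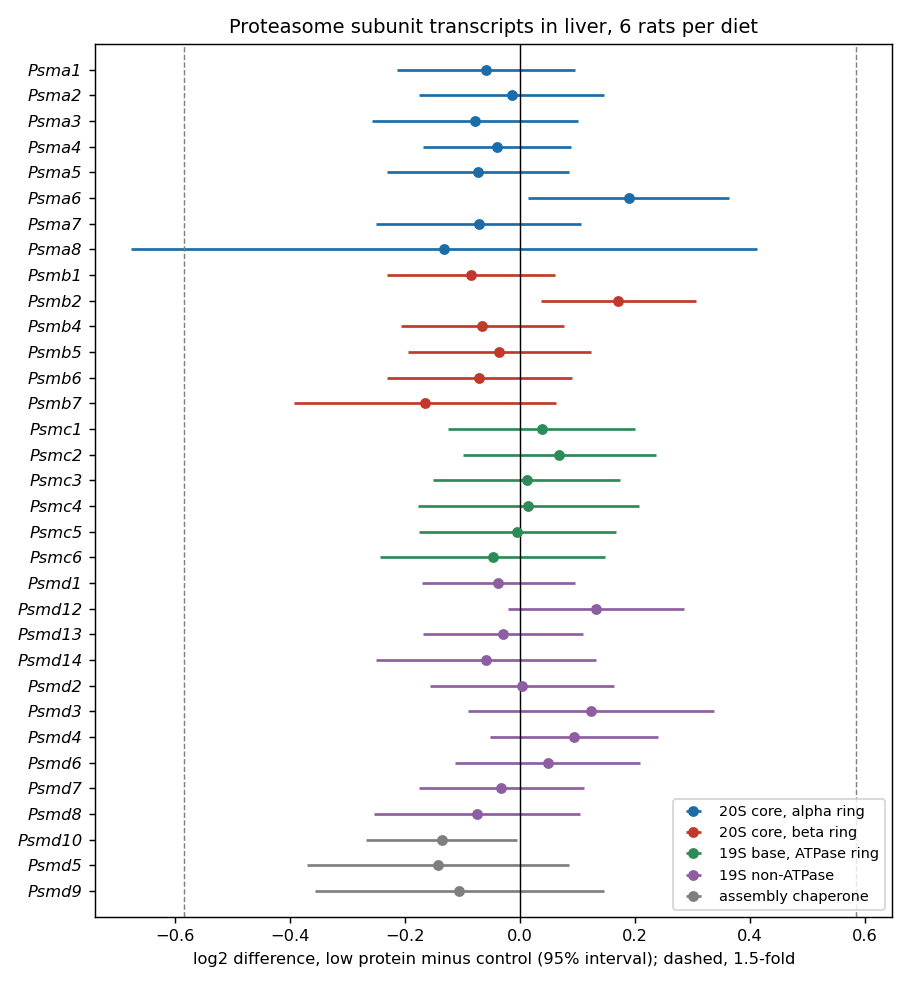
Log2 difference (low protein minus control, 6 rats per diet) of each of the 33 proteasome genes on the horizontal axis, with points coloured by subcomplex, bars showing the 95% interval and dashed lines at 1.5-fold. Intervals of 32 genes lie between the dashed lines, those of Psma6, Psmb2 and Psmd10 leave out 0, and that of Psma8 reaches -0.68.

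Promoters are shown for Psmb2, the member whose diets did not overlap, and for Psmb6 and Psmb4. Psmb6 and Psmb4 varied closely with the other subunits from rat to rat, as described further on. All were chosen after their values were seen, and each holds a motif marked below. Psmc2, Psma1 and Psmd8 varied about as closely, are not shown, and are not among the members with a marked motif. The sequences are RefSeq's for the GRCr8 assembly, found by symbol for 29 of the 33 members, and run from 250 bases before the gene's start to 50 bases after it, on the strand of the gene. Capitals mark 2 motifs, searched on both strands: TGACNNNGC, the core of the antioxidant response element that NFE2L1 and NFE2L2 bind, and TGATGNAA, the core of the amino acid response element that ATF4 binds. Psmb2 lies at chr5:144254808-144255107, plus strand, Psmb6 at chr10:55737638-55737937, plus strand, and Psmb4 at chr2:185134512-185134811, minus strand.
Psmb2: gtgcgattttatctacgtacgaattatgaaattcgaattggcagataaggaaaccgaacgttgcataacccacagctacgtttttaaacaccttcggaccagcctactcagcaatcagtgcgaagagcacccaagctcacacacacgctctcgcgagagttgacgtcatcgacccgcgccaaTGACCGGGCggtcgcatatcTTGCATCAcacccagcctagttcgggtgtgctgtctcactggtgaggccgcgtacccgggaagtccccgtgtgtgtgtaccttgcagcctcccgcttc
Psmb6: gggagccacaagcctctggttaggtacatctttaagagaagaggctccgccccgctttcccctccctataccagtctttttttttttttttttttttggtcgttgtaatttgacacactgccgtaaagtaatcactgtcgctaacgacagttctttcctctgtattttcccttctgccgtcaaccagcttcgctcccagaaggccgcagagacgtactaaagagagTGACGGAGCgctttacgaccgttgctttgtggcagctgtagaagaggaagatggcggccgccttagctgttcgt
Psmb4: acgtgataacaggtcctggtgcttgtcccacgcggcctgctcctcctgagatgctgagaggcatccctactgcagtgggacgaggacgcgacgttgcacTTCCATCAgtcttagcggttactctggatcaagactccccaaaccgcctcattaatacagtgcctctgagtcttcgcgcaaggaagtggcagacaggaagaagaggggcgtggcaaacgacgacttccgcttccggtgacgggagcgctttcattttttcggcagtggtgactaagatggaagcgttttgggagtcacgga

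Psmb2 held both motifs, TGACCGGGC at -68 and TTGCATCA, the amino acid response core read on the opposite strand, at -48 from the gene's start. Psmb6 held TGACGGAGC at -24, and Psmb4 held TTCCATCA, again the opposite strand of the amino acid response core, at -151. Over the members, the antioxidant core stood in 7 of 29 promoters (24.1%), those of Psma3, Psmb2, Psmb5, Psmb6, Psmd1, Psmd3 and Psmd9, against 12.1% of all 33469 promoters of the same length. The amino acid response core stood in 2 of 29 (6.9%), Psmb2 and Psmb4, against 3.98% of all. CCAAT, the box bound by NF-Y, stood in 15 of 29 (51.7%) against 37.5% of all on either strand, and that of Psmb2 at -72 overlapped its antioxidant core by 1 base. A match describes the letters only, and no test of the shares was made.

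In the alpha ring of the core, 7 of 8 genes had slightly lower and 1, Psma6, higher values in low protein rats, and 0 passed the test. Levels are given as log2 of the signal less the 75th percentile of the array. Psma6 ran from 4.16 to 4.56 in control rats (median 4.25) and from 4.40 to 4.67 in low protein rats (median 4.47). Control rat 5, at 4.56, was the only control rat within the low protein range, and all 6 low protein rats lay above the control median. The difference was 0.19 ± 0.08 (SE), a fold of 1.14, with an adjusted p = 0.192 in limma, and 0.11 with quantile normalization. The gate-forming partners Psma1, Psma2, Psma3, Psma4, Psma5 and Psma7 lay between -0.08 and -0.01, and their intervals reached from -0.26 to 0.15. Psma8 was well above background on all 12 arrays, but its SD was 0.65 in low protein rats and 0.19 in control rats. Its low protein values, from -5.85 to -4.36, enclosed all of its control values, from -5.26 to -4.76.

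Psmb2, a beta subunit without a cutting site, was the member with the smallest p. Its control values ran from 3.23 to 3.45 (median 3.41) and its low protein values from 3.46 to 3.62 (median 3.55). The lowest low protein rat, rat 3, lay just above the highest control rat, also number 3, so the groups did not overlap, by a narrow margin. The difference was 0.17 ± 0.06 (SE), a fold of 1.13 with an interval of 1.03 to 1.24, and missed the threshold (limma adjusted p = 0.128). Psmb2 was the only member of the 33 whose diets did not overlap (3.03%), against 4.98% of all genes. On slides 1 and 2 alone its difference was 0.19 and 0.12, and after quantile normalization 0.09 (limma adjusted p = 0.358).

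The catalytic subunits showed no call either. Psmb5, with the chymotrypsin-like site, ran from 2.66 to 2.93 in control rats (median 2.83) and from 2.62 to 2.96 in low protein rats (median 2.77). Its groups covered nearly the same range, and the difference was -0.04 with an interval of -0.20 to 0.12. Psmb6, with the caspase-like site, ran from 2.16 to 2.44 (median 2.24) and from 2.02 to 2.37 (median 2.18), again overlapping over most of the range, with a difference of -0.07 and an interval of -0.23 to 0.09. Psmb7, with the trypsin-like site, had the lowest difference of all members, -0.17 ± 0.11 (SE, limma adjusted p = 0.404). Its control rats spread from 1.21 to 1.78 (median 1.58) and its low protein rats from 1.18 to 1.54 (median 1.40). Control rat 4, at 1.21, was the lowest of its diet and the groups overlapped widely, while no low protein rat exceeded the control median. The other structural beta subunits, Psmb1 (-0.09) and Psmb4 (-0.07), lay close to Psmb6. Over the 6 beta genes 5 differences were negative and 1 positive, with a median of -0.07.

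**Figure D2:**
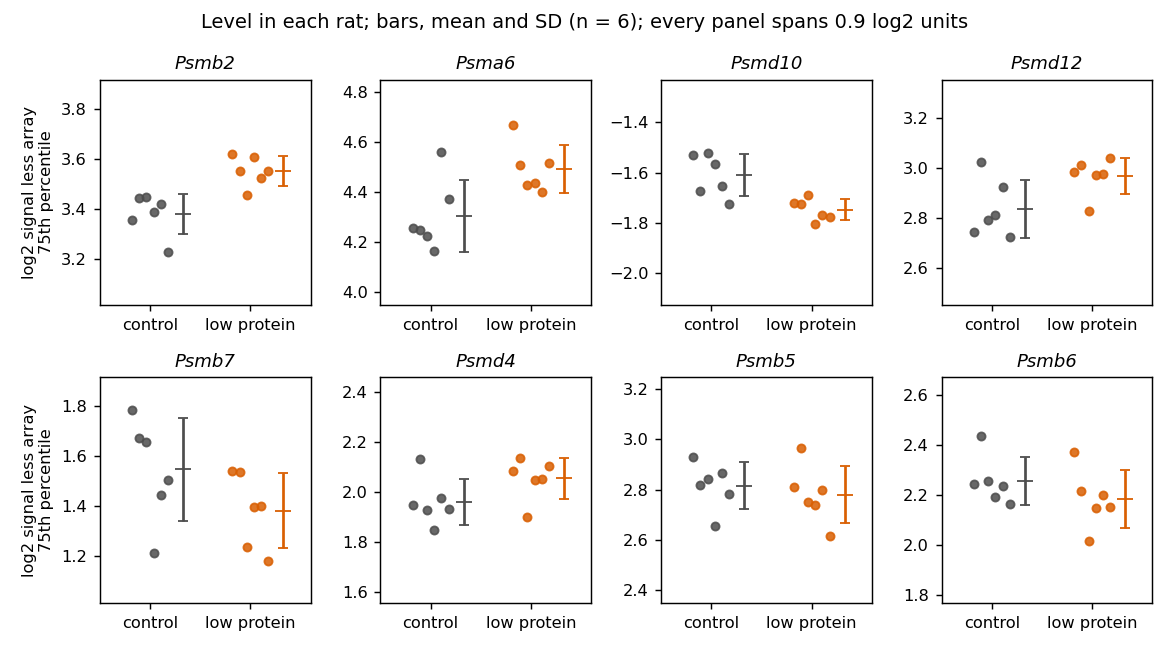
Level in each rat (vertical axis, log2 signal less the array's 75th percentile, every panel spanning 0.9 log2 units) of the 6 members with the smallest p and of the catalytic subunits Psmb5 and Psmb6; points are rats in number order, bars are the mean and SD of 6 rats. The diets do not overlap for Psmb2 and overlap for the other 7 genes.

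The 19S particle had the differences nearest to 0. The 6 ATPases of the base lay between -0.05 for Psmc6 and 0.07 for Psmc2, with Psmc1 at 0.04, Psmc3 at 0.01, Psmc4 at 0.01 and Psmc5 at -0.0044. Their intervals reached at most from -0.24 to 0.24, and 0 of 6 had an unadjusted p under 0.05. Psmc1, the only member with 2 probes, gave 0.04 and 0.02 with them.

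Among the 10 non-ATPase subunits 5 values were positive and 5 negative. Psmd12, a lid subunit, ran from 2.72 to 3.02 in control rats (median 2.80) and from 2.83 to 3.04 in low protein rats (median 2.98). Control rat 2 was the highest of its diet and low protein rat 3 the lowest of its own, so the groups overlapped, and the difference was 0.13 ± 0.07 (SE, limma adjusted p = 0.308), or 0.06 with quantile normalization. Psmd4, a receptor for ubiquitin chains, ran from 1.85 to 2.13 (median 1.94) and from 1.90 to 2.14 (median 2.07). Of its low protein rats 5 lay above the control median, and the difference was 0.09 ± 0.07 (SE, limma adjusted p = 0.475). The scaffolds of the base, Psmd1 (-0.04) and Psmd2 (0.0040), and the lid subunits Psmd6 (0.05), Psmd7 (-0.03), Psmd8 (-0.08) and Psmd13 (-0.03) stayed within 0.08 of 0. Psmd14, the enzyme that cuts ubiquitin chains off the substrate, was at -0.06, and Psmd3, another lid subunit, at 0.12.

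The 3 assembly chaperones all had lower values in low protein rats, with a median of -0.14, and 0 passed the test. Psmd10, also called gankyrin, ran from -1.72 to -1.52 in control rats (median -1.61) and from -1.81 to -1.69 in low protein rats (median -1.75). All 6 low protein rats lay below the control median, and control rat 6, at -1.72, was the only control rat within the low protein range. The difference was -0.14 ± 0.06 (SE, limma adjusted p = 0.215). Psmd5 was at -0.14 ± 0.11 (-0.01 on slide 1 and -0.40 on slide 2) and Psmd9 at -0.11 ± 0.12. Psmd9 spread more among control rats, from -0.37 in rat 2 to 0.20 in rat 1, than the difference between the diets.

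From rat to rat within a diet, the members varied together by small amounts. Each value was set against the mean of its own diet. In low protein rat 3, 28 of 33 members lay below that mean, with a median of -0.12, and in control rat 6, 27 did, with a median of -0.09. In low protein rat 1 only 4 of 33 lay below it (median 0.07), and in control rats 2 and 5 only 7 did (medians 0.04 and 0.08). The SD of the rat medians within a diet, pooled over both diets, was 0.063. It describes single rats, while the members' median difference between the diets, -0.04, compares means of 6 rats. Of these 5 rats, control rat 2 was on slide 2 and the others on slide 1.

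The mean Pearson correlation of these deviations over the 12 arrays was 0.292 over the 528 pairs of members (90 of them negative), 0.031 over all pairs of genes, and 0.0694 over the 4740 genes at or above the lower quartile of the members' mean signal. It is a description over 12 arrays that all members share, and it moved with the scaling that they share too: with quantile normalization it was 0.128 for members and 0.00411 for all genes, without scaling 0.684 and 0.315, and with the slide removed as well 0.335 and 0.0356. By subcomplex it was 0.371 in the alpha ring, 0.323 in the beta ring, 0.267 among the ATPases, 0.395 among the non-ATPase subunits and 0.137 among the 3 chaperones. Between genes of the 20S core and genes of the 19S particle it was 0.331.

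Set against the mean of the other 32 members, 19 members had a correlation over 0.5. The highest were Psmb6 (0.808), Psmc2 (0.796), Psmb4 (0.795), Psma1 (0.780) and Psmd8 (0.776), which belong to 4 of the subcomplexes. The lowest were Psmc6 (-0.109), Psmd10 (-0.107) and Psmd9 (0.145), the last 2 of them chaperones. Psmc6 had 1 low control rat, rat 1 at -0.29, beside 0.05 to 0.23 in the other control rats.

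**Figure D3:**
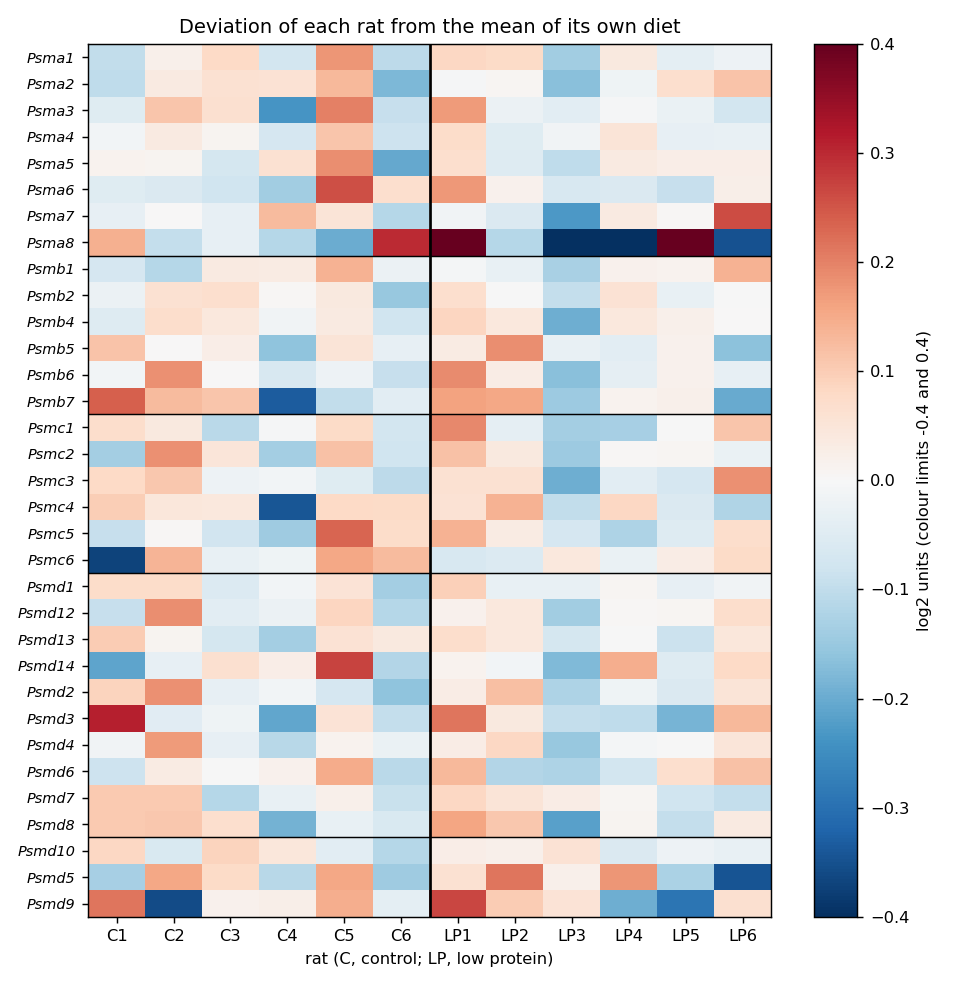
Deviation of each rat (columns) from the mean of its own diet for each of the 33 genes (rows, blocks by subcomplex), as colour on a log2 scale with limits at -0.4 and 0.4. The column of low protein rat 3 is mostly blue (28 of 33 genes below the mean) and that of low protein rat 1 mostly red (4 of 33 below).

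The wider proteasome and ubiquitin system was read from 8 lists with 62 measured genes of 80, and 0 of 62 passed the test over all genes. At an unadjusted p under 0.05 there were 9 (14.5%), 5 higher and 4 lower, against 21.6% of all genes, and the median over the 62 was 0.01. The lists of assembly factors (0 of 3 passed, median 0.08) and of activators and the inhibitor Psmf1 (0 of 5, median 0.03) held no unadjusted p under 0.05. In the first list the core chaperone Pomp was at -0.08 and Psmg2 at 0.15. In the second, the alternative caps Psme3 and Psme1 were at 0.19 and 0.12. Without control rat 4 Psme3 was at 0.08, and with quantile normalization Psme1 was at 0.02.

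Of 9 bound factors and further subunits 0 passed, and the median was 0.07. Ubqln1, a shuttle protein that carries ubiquitin-tagged proteins to the proteasome, was at 0.20 ± 0.08 (SE, limma adjusted p = 0.161). It ran from 1.63 to 1.95 in control rats (median 1.75) and from 1.81 to 2.11 in low protein rats (median 1.96), so the groups overlapped. Of 5 regulators of proteasome gene transcription 0 passed (median -0.09), with Ngly1, which processes NFE2L1, at -0.12 and the forkhead factor Foxo1 at -0.26 ± 0.22. Nfe2l1 itself and Ddi2 were on this list but not among the genes tested.

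The immunoproteasome subunits replace the catalytic ones in immune cells and under interferon, and 0 of 3 passed (median -0.14). Psmb9, which takes the place of Psmb6, was at -0.44 ± 0.17 (SE, limma adjusted p = 0.137), Psmb8 at -0.14 ± 0.13 and Psmb10 at -0.03. Psmb9 ran from 1.47 to 2.38 in control rats (median 2.27) and from 1.38 to 2.13 in low protein rats (median 1.62). Control rat 6 was the low value of its diet, and without it the difference was -0.58 with an adjusted p = 0.0226, which passes. All 6 macrophage markers, well above background on all 12 arrays, also had lower values in low protein rats, with a median of -0.35, 0 of 6 past the test and 4 of 6 at an unadjusted p under 0.05, against 21.6% of all genes. Their summed signal, in units of the array's 75th percentile, was 12.5 to 26.0 in control and 12.5 to 18.6 in low protein rats, and their part in the Psmb9 values was not tested.

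Genes of ubiquitin itself and its activating enzymes had 0 of 6 calls (median -0.12), with the activating enzyme Uba6 at -0.29 ± 0.13, or -0.16 with normexp background and -0.17 in the deposited values. Among 20 ubiquitin-conjugating enzymes 0 passed, with a median of -0.01. The smallest p was that of Ube2e3, whose values ran from 1.41 to 1.74 in control rats (median 1.57) and from 1.30 to 1.44 in low protein rats (median 1.35), with a narrow overlap. Its difference was -0.22 ± 0.07 (SE, limma adjusted p = 0.085), and it passed with quantile normalization (adjusted p = 0.0341) and under 3 further settings. Ube2k was at 0.19 ± 0.08, but at 0.10 with the mean of its probes and on slide 2 alone. Of 11 ubiquitin ligases 0 passed (median 0.09), led by Fbxo21 at 0.42 ± 0.14 (adjusted p = 0.101) and Ubr2, of the N-degron pathway, at 0.30 ± 0.10 (adjusted p = 0.108). Fbxo21 had 1 low protein rat, rat 6 at 0.53, far above the other 5, which lay between -0.30 and -0.18, and its difference was 0.22 on slide 1 and 0.82 on slide 2, which held that rat. Without control rat 1 Ubr2 passed, at 0.37 with an adjusted p = 0.0406.

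**Figure D4:**
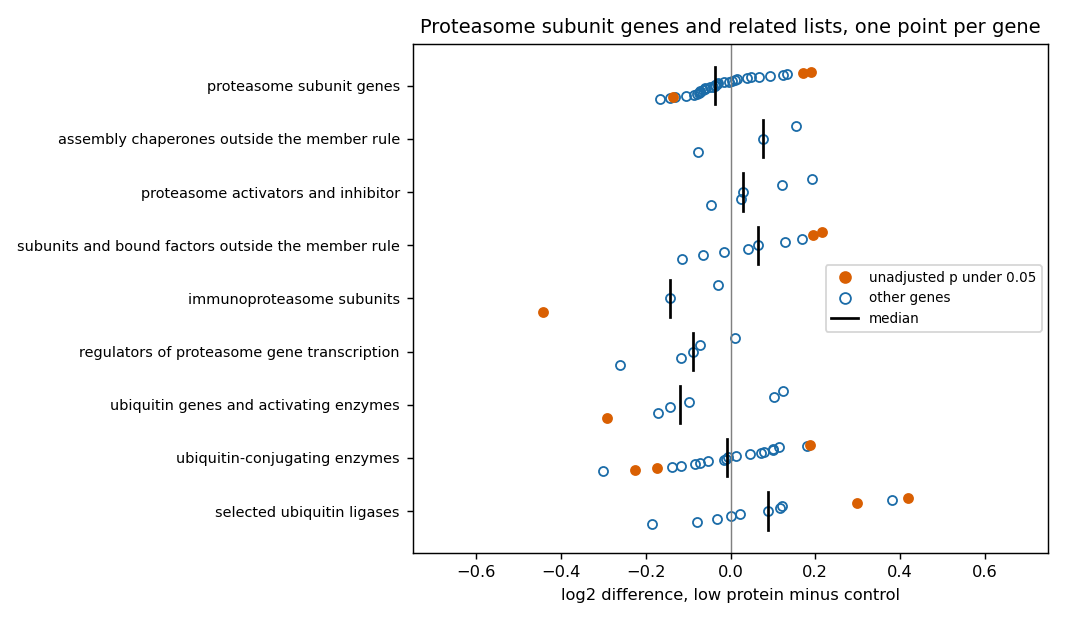
Log2 difference (low protein minus control) of each proteasome gene and each measured gene of 8 related lists, with 1 point per gene, filled where the unadjusted p was under 0.05, and a black line at each list's median. Medians lie between -0.14 for the immunoproteasome subunits and 0.09 for the selected ubiquitin ligases.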

How the data were processed

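Array intensity was extracted from the scans by the authors with Agilent Feature Extraction 12.0.3.1, per the file headers, which subtracted background within each array. The deposited scanner files hold processed and median intensity, not scaled between arrays, and the deposited value table equals the median intensity at 100% of spots. Groups came from the labels, which number the samples of a diet. They are called rats here, and p-values set a diet difference against the spread between these samples, moderated by limma over all genes.

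The processed signal was taken to log2 and the 75th percentile of each array subtracted. Outlier spots (453 to 739 per array) were left out, 0 were saturated, and replicate spots of 1 probe were averaged. Of 45598 probes, 21215 (46.5%) were named through an unversioned RefSeq accession in a table of the GRCr8 assembly; the headers name an older build. A probe was kept if it passed the scanner software's background test in 5 or more of the 6 rats of either diet. A gene was tested on its kept probe with the highest mean. Differences were tested with limma 3.58.1 in R 4.3.3 (two-sided, Benjamini-Hochberg over all genes), with tables and figures made in Python 3.11.15. The fit was tested on simulated data, in which genes varied independently of each other and the changes put in were larger than the members' differences. The number of arrays limits the precision.

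The members and lists were chosen with earlier results of these data known. All members are named, and values by rat are given for members that passed, or for the 6 with the smallest p, and for Psmb5, Psmb6 and Psmb7. From each related list up to 4 genes that passed, or the 2 with the smallest p, are named, apart from genes not reported here; other genes were named after their values were seen. Alternatives covered background correction, scaling, the value table, filters, probes per gene, outliers, the spread estimate, slide, rat number and each rat left out.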

Additional observations from a re-analysis of the deposited data

Results flagged for a closer look

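In 10 of 98 groups of 6 rats, each 1 gene in 1 diet, a single rat stood apart by Dixon's criterion, which flags about 1 in 20 groups by chance. In control rats these were Psmb6 in rat 2 (2.44, nearest other rat 2.26), Psmb9 in rat 6 (1.47, nearest 2.10) and Psmc6 in rat 1 (-0.29, nearest 0.05). Control rat 4 stood apart in Psmc4 (0.02, nearest 0.41) and Psme3 (-2.47, nearest -1.96). In low protein rats, rat 1 was the high value of Psma3 (0.87, nearest 0.69) and Psmd1 (4.18, nearest 4.09), and rat 3 the low value of Psmb4 (3.56, nearest 3.75) and Psmd12 (2.83, nearest 2.97). Fbxo21 had a high value in low protein rat 6 (0.53, nearest -0.18). All values are log2 signal less the array's 75th percentile.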

How the results depend on the processing

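No alternative brought any member past the threshold, and the smallest adjusted p of a member over the alternatives was 0.0585 (Psmb2, normexp background; 0.128 as reported). The members with an unadjusted p under 0.05 were Psmb1, Psmb4 and Psmd1 with quantile normalization, in place of Psma6, Psmb2 and Psmd10. The 1429 genes that passed became 891 without scaling (679 higher, 212 lower, against 761 and 668), 618 with no filter on dim probes, 164 on slide 1 and 12 on slide 2 alone, and 856 (without control rat 3) to 1307 with 1 rat left out. With the 75th percentile over detected probes 675 were higher and 1019 lower. The median of the members, -0.04, was -0.05 to -0.02 with 1 rat left out 0.10 without scaling, and -0.09 and -0.07 with quantile normalization and with the 75th percentile over detected probes. Of the related lists 2 genes passed with quantile normalization (Sem1 and Ube2e3), 1 (Ube2e3) with the 75th percentile over detected probes, normexp or a trended robust spread, and 0 to 1 with 1 rat left out (Ubr2 without control rat 1, Psmb9 without control rat 6). The labels do not say that rat numbers pair the samples. The deviations of same-numbered rats correlated at 0.0339 to 0.26, above 0.1 for 5 of 6 numbers. For 2 of 6 numbers the most correlated rat of the other diet had the same number. These values do not settle whether the samples were paired, and they were not treated as paired because the labels do not give it. With the rat number as a replicate block 1411 genes, 0 members and 1 related gene (Fbxo21, adjusted p = 0.046) passed. Signs turned in quantile normalization for Psmc1 (-0.04), Psmc2 (-0.0011), Psmc3 (-0.03), Psmd2 (-0.07) and Psmd6 (-0.02), with detected probes for Psmc3 (-0.03), Psmc4 (-0.02) and Psmd2 (-0.03), and for Psmd13 with normexp (0.02) and the deposited values (0.03). On slide 1 they turned for Psmc4 (-0.01) and Psmd7 (0.03), and on slide 2 for Psma2 (0.03), Psma8 (0.19), Psmb1 (0.03), Psmc5 (0.07), Psmd13 (0.01), Psmd2 (-0.09) and Psme1 (-0.01). With 1 rat left out Psma2 ran from -0.05 to 0.02, Psma8 from -0.30 to 0.00029, Psmc1 from -0.00047 to 0.06, Psmc3 from -0.03 to 0.05, Psmc4 from -0.05 to 0.04, Psmc5 from -0.03 to 0.04 and Psmd2 from -0.03 to 0.04. The cause of these changes was not tested, beyond fewer rats or more genes tested where the alternative has them.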
